A study of Homo sapiens with 8 samples.

Results

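The OAS family of human cells comprises OAS1, OAS2, OAS3 and OASL, and all 4 genes were followed here in the pancreatic cancer line Panc10.05 and in its indisulam-resistant derivative. Indisulam is an aryl sulfonamide that brings the splicing factor RBM39 to the ubiquitin ligase substrate receptor DCAF15, so that RBM39 is degraded. The family was selected on measured values of these libraries, since OAS1 and OAS2 were among the genes with the largest difference between the untreated resistant and the untreated parental cells, and OAS3 and OASL were added as the remaining members. All 4 members, of 60675 genes listed, passed the filter on low counts, which 16661 genes passed. Because the comparison of the lines chose the members, it is given below as a description without a test.

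Poly(A) RNA was sequenced from 4 groups of 2 libraries, described by the study as technical replicates, so that every p-value measures only the spread between such libraries. Parental cells were left untreated or received 2 µM indisulam for 18 h. The resistant cells, which had been grown on rising doses of the drug, were either kept continuously on 2 µM indisulam or had been without it for a week, and the latter are the resistant untreated group. The 2 drug comparisons therefore differ in duration: in the parental line a short exposure is set against untreated cells, in the resistant line lasting exposure against a drug-free interval. Nothing in the sources used here says whether the resistant cells are 1 clone, and the growth and treatment notes in the labels name A549 cells, whereas titles and cell line fields name Panc10.05. The libraries held 65266253 to 108002436 reads in genes. The 7 ductal epithelial markers summed to 6330 to 12200 CPM (reads scaled to library size), higher in both resistant groups than in both parental groups. Most of the sum came from KRT8 and KRT18. EPCAM did not follow this order, with 396 and 464 CPM in parental untreated and indisulam cells. It was at 424 and 432 CPM in resistant untreated and indisulam cells. In bulk RNA, fewer cells with a transcript and less transcript per cell cannot be told apart.

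OAS1, OAS2 and OAS3 are enzymes that are switched on by double-stranded RNA and then join ATP into oligoadenylates with an unusual linkage from the 2′ to the 5′ position. These oligoadenylates activate the latent endonuclease RNase L, which cuts viral and cellular RNA. OASL is related in sequence, has lost the synthetic activity and carries ubiquitin-like domains, through which it enhances signalling by the RNA sensor RIG-I. Transcription of all 4 genes is raised by interferons through transcription factors that include STAT2 and IRF9, and in epithelial cells they are commonly read as part of the interferon response.

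In genome build GRCh38, OAS1 (ENSG00000089127, chromosome 12, 112905856 to 112933219), OAS3 (ENSG00000111331, 112938051 to 112976460) and OAS2 (ENSG00000111335, 112978395 to 113011723) lie head to tail on the plus strand. OAS1 and OAS3 were separated by 4.8 kb and OAS3 and OAS2 by 1.9 kb. OASL (ENSG00000135114, 121017763 to 121039246) is on the minus strand of the same chromosome, 8.01 Mb from OAS2. A long noncoding gene, ENSG00000257452, overlaps OAS1, OAS3 and OAS2 on the opposite strand, and it had 0 reads in every library.

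The start regions of OAS1 and OAS3 are shown because interferon-responsive promoters carry repeats of GAAA and all members fell with indisulam in resistant cells. They run from 250 bases before to 50 bases after the gene start as RefSeq annotates it on GRCh38.p14, the OAS1 region being chr12:112906712-112907011 and the OAS3 region chr12:112938224-112938523, both on the plus strand. Capitals mark matches to GAAANNGAAA or GAAANGAAA on either strand.
OAS1: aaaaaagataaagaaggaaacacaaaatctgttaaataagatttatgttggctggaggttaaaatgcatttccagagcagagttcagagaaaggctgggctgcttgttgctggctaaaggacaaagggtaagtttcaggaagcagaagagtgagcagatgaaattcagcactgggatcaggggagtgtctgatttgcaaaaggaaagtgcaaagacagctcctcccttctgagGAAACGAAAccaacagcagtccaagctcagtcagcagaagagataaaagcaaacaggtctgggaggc
OAS3: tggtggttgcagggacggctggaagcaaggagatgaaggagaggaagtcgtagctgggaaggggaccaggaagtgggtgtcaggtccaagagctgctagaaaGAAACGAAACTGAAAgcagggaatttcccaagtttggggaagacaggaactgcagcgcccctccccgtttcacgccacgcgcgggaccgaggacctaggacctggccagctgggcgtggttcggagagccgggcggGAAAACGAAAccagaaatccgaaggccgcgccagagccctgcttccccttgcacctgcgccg

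The OAS1 region held 1 match, GAAACGAAA, ending 8 bases before the start. The OAS3 region held 3 matches, of which 2 overlap in GAAACGAAACTGAAA and the other, GAAAACGAAA, ends 2 bases before the start. Of 35116 such regions in the genome, 3.57% held GAAANNGAAA, 3.12% held GAAANGAAA and 6.4% held at least 1 of the patterns. The letters of GAAANGAAA were chosen after the sequences had been seen. A match is a description of letters, and whether it is a working site was not examined. OAS2 and OASL were not looked at in this way. Whether the matches bear on the fall of the members with indisulam was not tested.

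OAS1 had few reads in parental cells. It had 35 and 34 reads in the parental untreated libraries (0.320 and 0.318 CPM), 24 and 16 reads in the parental indisulam libraries (0.320 and 0.207 CPM), 4730 and 3845 reads in resistant libraries off the drug (63.9 and 59.2 CPM) and 213 and 337 reads in those on it (3.16 and 3.50 CPM). The resistant libraries off the drug were the highest, those on the drug came next, and the parental groups overlapped.

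OAS2 followed the same order from a similarly low base. Parental libraries held 0.612 and 0.627 CPM without (67 reads in each) and 0.280 and 0.387 CPM with indisulam (21 and 30 reads), and resistant libraries 111.0 and 111.5 CPM off the drug and 7.11 and 7.15 CPM on it. No library of one group overlapped with any of another. The share of all genes tested without such overlap was not counted. Nothing is therefore read from it, here or for OAS3 and OASL below.

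OAS3, the largest of the enzymes, was already abundant in parental cells. Parental libraries held 39.7 and 40.0 CPM without and 34.1 and 32.3 CPM with indisulam, and resistant libraries 617 and 610 CPM off the drug and 108 and 102 CPM on it. Again the 4 groups did not overlap.

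OASL was measured at 9.61 and 9.29 CPM in untreated parental libraries, which became 6.07 and 5.08 CPM with indisulam, and at 82.6 and 76.5 CPM in resistant libraries off the drug, beside 47.1 and 44.6 CPM on it. In contrast to the enzymes, its resistant libraries on the drug were nearer to those off the drug than to either parental group, and no groups overlapped.

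**Figure D1:**
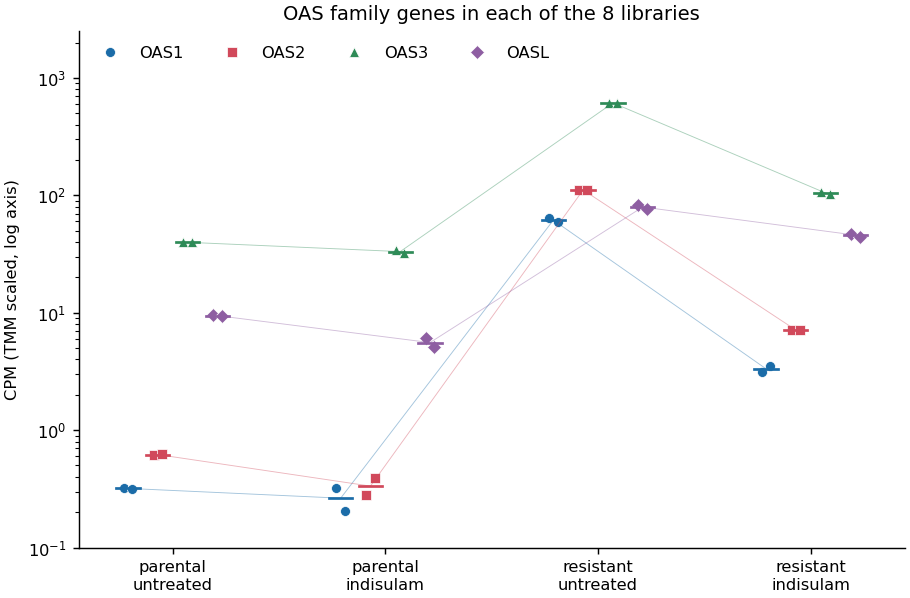
Normalised read counts (CPM, logarithmic axis) of OAS1, OAS2, OAS3 and OASL in the 8 libraries, 1 point per library, by group, with a short bar at each group mean and thin lines joining the means of a gene. For every gene the resistant untreated libraries are the highest and the resistant indisulam libraries come next, and the step between them is small for OASL (79.6 against 45.9 CPM on average) and large for OAS1 (61.5 against 3.33 CPM).

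Summed over the 4 genes, the family took 50.2 CPM in each parental untreated library, 40.7 and 38.0 CPM in the parental indisulam libraries, 875 and 857 CPM in the resistant untreated libraries and 165 and 157 CPM in the resistant indisulam libraries. All 4 genes had the same order of groups, from resistant untreated over resistant indisulam and parental untreated to parental indisulam. The last step of that order, parental untreated over parental indisulam, was a ratio of means of 1.21 for OAS1, whose libraries overlapped there, 1.86 for OAS2, 1.2 for OAS3 and 1.7 for OASL.

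The difference between the lines off the drug, on which the family was chosen, was 7.59 on the log2 scale for OAS1 (SE 0.086), or 192-fold, and 7.49 for OAS2 (SE 0.061), or 179-fold. It was 3.94 for OAS3 (SE 0.034), or 15.4-fold, and 3.07 for OASL (SE 0.054), or 8.42-fold. Counted from the highest of the 16661 genes, OAS1 was at rank 16, OAS2 at rank 17, OAS3 at rank 178 and OASL at rank 293. All 4 members were higher by more than 1 on the log2 scale, as were 7.21% of the genes tested, and nothing is read from this count, since the rule used the contrast. The rule set no threshold.

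On the drug, the same line difference was 3.67 for OAS1 (SE 0.167), 4.41 for OAS2 (SE 0.116), 1.66 for OAS3 (SE 0.035) and 3.04 for OASL (SE 0.065). The difference of OASL was 8.23-fold on the drug beside 8.42-fold off it, whereas that of OAS1 went from 192-fold to 12.7-fold. The order of the genes changed as well, with OAS2 in front and OAS3 last. Again 4 of 4 members were higher by more than 1, beside 12.9% of the genes tested, and this too is a description.

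The drug comparison within each line asks how the RNA levels of the genes moved with indisulam. In parental cells, OAS2, OAS3 and OASL fell and OAS1 did not pass the test. These 3 of 4 members called lower stand beside 26.6% of the tested genes called lower and 31.6% called higher at an adjusted p of 0.05 (edgeR's quasi-likelihood test with Benjamini-Hochberg adjustment, as for all tests below).

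OAS2 fell by 0.89 on the log2 scale in parental cells (SE 0.195, adjusted p = 0.00045), a value that rests on 21 to 67 reads a library. OASL fell by 0.76 (SE 0.077, adjusted p = 3.8e-07). OAS3 fell by 0.26 (SE 0.036, adjusted p = 1.5e-06), a small change on 2502 to 4346 reads a library. The OAS1 estimate was -0.28 (SE 0.277, adjusted p = 0.4), and its 95% interval from -0.85 to 0.29 leaves room for a fall as large as that of OASL.

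In resistant cells all 4 members fell with indisulam, beside 25.8% of the tested genes called lower and 24.9% called higher. The enzymes fell strongly. OAS1 fell by 4.20 on the log2 scale (SE 0.061, adjusted p = 3.2e-24), or 18.3-fold, OAS2 by 3.96 (SE 0.043, adjusted p = 2e-26), or 15.6-fold, and OAS3 fell by 2.55 (SE 0.032, adjusted p = 1.5e-25), or 5.86-fold. OASL fell by 0.80 (SE 0.047, adjusted p = 5.3e-10), or 1.74-fold.

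Among the 16661 genes ordered from the lowest change in resistant cells, OAS1 held rank 4, OAS2 rank 8, OAS3 rank 19 and OASL rank 482. In parental cells the same ranks were 4370, 1346, 4521 and 1715. The median change of the 4 members was -3.26 in resistant and -0.52 in parental cells, beside 0.009 and 0.014 over all genes tested.

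The difference of the responses (resistant minus parental) separated the enzymes from OASL. It was -3.92 for OAS1 (SE 0.344, adjusted p = 4.9e-09), -3.08 for OAS2 (SE 0.248, adjusted p = 1.3e-09) and -2.29 for OAS3 (SE 0.048, adjusted p = 5.1e-20). For OASL it was -0.03 (SE 0.092, adjusted p = 0.79) with a 95% interval from -0.23 to 0.16. These 3 members called lower stand beside 27.5% of the tested genes called lower and 22.7% called higher. The resistant drug comparison and this difference use the same resistant untreated libraries as the comparison that chose the members, and so the choice favoured the direction of both, and their p-values are no independent evidence of it.

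**Figure D2:**
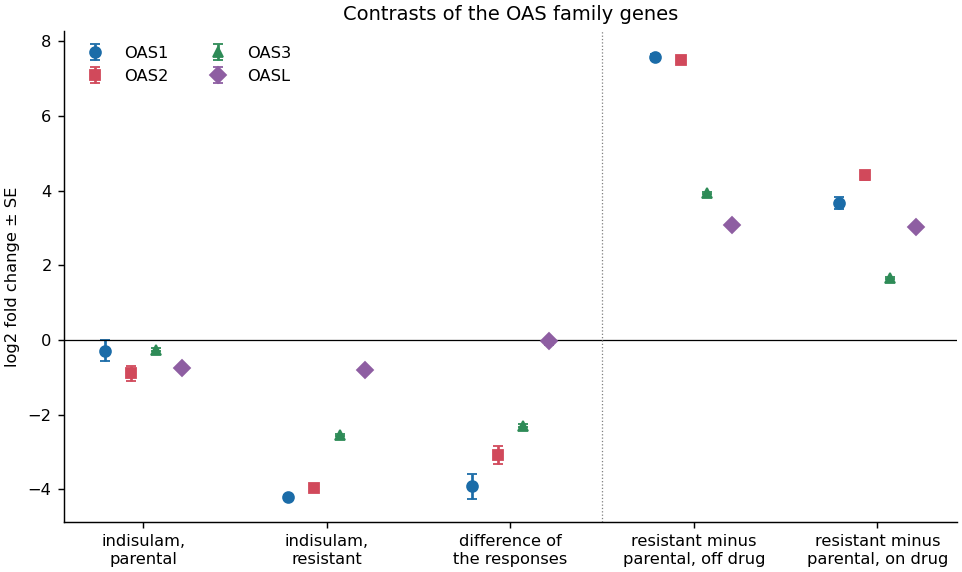
Log2 fold changes of OAS1, OAS2, OAS3 and OASL in the drug comparisons, in the difference of the responses and in the line differences, with bars for the standard errors. The parental changes lie between -0.89 and -0.26, the resistant changes of the enzymes between -4.20 and -2.55, and the 2 OASL changes, -0.76 and -0.80, lie side by side.

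Ratios of reads within a library do not depend on the scaling between libraries. The log2 ratio of OAS1 to OAS2 reads was -0.94 and -0.98 in parental untreated, -0.80 and -0.91 in resistant libraries off the drug and -1.17 and -1.03 in those on it, so that these genes moved nearly in parallel. In the parental indisulam libraries it was 0.19 and -0.91, from few reads. OAS1 against OASL went from -4.91 and -4.87 in parental untreated to -0.37 in both resistant untreated libraries and to -3.90 and -3.67 in resistant indisulam libraries.

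OAS3 against OASL gave log2 ratios of 2.05 and 2.10 in untreated and 2.49 and 2.67 in treated parental libraries, 2.90 and 2.99 in resistant libraries off the drug and 1.19 in both on the drug. OAS2 against OAS3 gave -6.02 and -5.99 in untreated and -6.93 and -6.38 in treated parental libraries, -2.47 and -2.45 in resistant libraries off the drug and -3.92 and -3.83 on the drug. The neighbours OAS3 and OAS2, with 1.9 kb between them, were therefore far from a constant ratio, and unequal change is all that such ratios show.

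Levels of different genes can be compared only per length. With reads divided by the merged exons of each gene, OAS3 made up a mean of 58.4% of the family in parental untreated cells and OASL 39.5%, with 0.648% for OAS1 and 1.46% for OAS2. In resistant untreated cells the shares were 55.5% for OAS3, 20.6% for OASL, 16.2% for OAS2 and 7.72% for OAS1. In resistant indisulam cells OASL reached 52.0%, OAS3 41.6%, OAS2 4.55% and OAS1 1.84%.

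The length used decided part of this order. With the MANE Select transcript, a length added after the data had been seen, OAS1 rose above OAS2 in resistant untreated cells (21.1% and 13.4%), and OAS3 stayed above OASL in resistant indisulam cells (47.4% and 41.9%). Under both lengths OAS3 was the leading member in the parental groups and in resistant untreated cells.

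**Figure D3:**
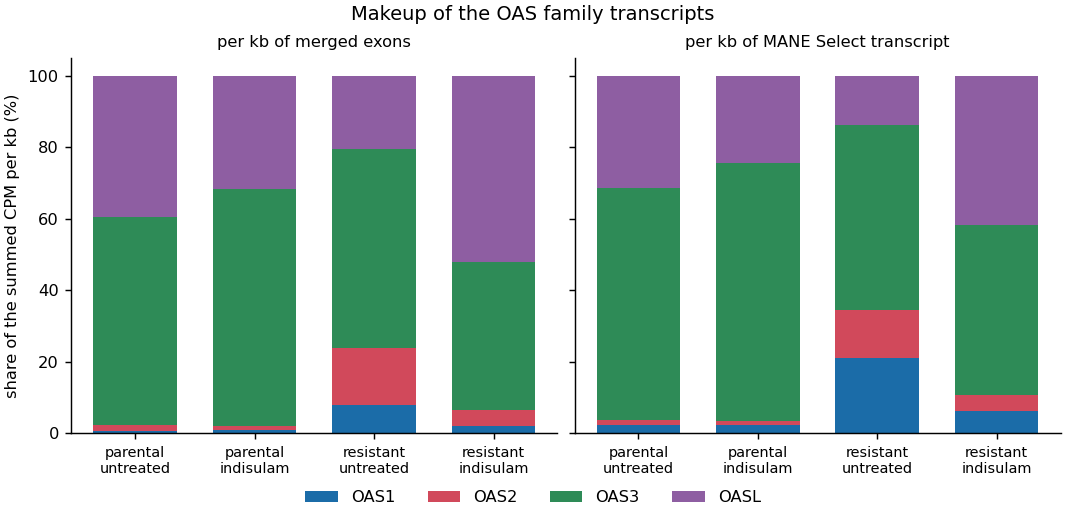
Share of each member in the length-scaled reads of the family (percent), mean of 2 libraries per group, by merged exons on the left and by the MANE Select transcript on the right. OAS1 and OAS2 have a larger share in resistant untreated cells (7.72% and 16.2% on the left) than in any other group, and on the left OASL goes from 20.6% in resistant untreated to 52.0% in resistant indisulam cells.

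The genes with the most similar profile were listed for each member by the root mean square distance between centred log2 CPM values over the 8 libraries. For OAS1 they were CMPK2 (0.27), XAF1 (0.28) and MX2 (0.52), and for OAS2 XAF1 (0.25), CMPK2 (0.43) and MX2 (0.75). The distance between OAS1 and OAS2 themselves was 0.38. For OAS3 the list read SP110 (0.26), IFIT1 (0.27) and KLK8 (0.27), the last of which had no group mean above 0.472 CPM.

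For OASL, the nearest profiles were HERC5 (0.16), DDX60L (0.17) and HIVEP3 (0.19). OAS3 and OASL were 0.66 apart, OAS1 and OASL 1.74, and OAS2 and OAS3 1.64. HERC5, a ligase for the ubiquitin-like protein ISG15, was at 2.50 and 1.20 CPM in parental cells without and with indisulam and at 16.4 and 9.38 CPM in resistant cells off and on the drug. The 8 points fall into 4 groups, so these distances describe group means. When ordered by Pearson's r instead, 1 of the 12 listed genes was the same, XAF1 for OAS2.

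The genes around the family were examined as a description of position. Values are given for protein-coding genes within 250 kb of a member that passed the filter on low counts, and 4 others there had at most 2 reads in any library. DDX54, RITA1 and TPCN1, beyond OAS2, differed between the untreated lines by -0.02 (SE 0.032), 0.19 (SE 0.034) and 0.01 (SE 0.037) on the log2 scale. On either side of OASL, CAMKK2 differed by 0.12 (SE 0.031), SPPL3 by 0.10 (SE 0.033) and P2RX4 by 0.67 (SE 0.056). RASAL1 and IQCD, with 2 to 30 and 3 to 55 reads a library, differed by 2.08 (SE 0.414) and 1.69 (SE 0.293), and CFAP73, with 4 to 19 reads, by -0.20 (SE 0.467).

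With indisulam in resistant cells, the changes of these neighbours lay between -0.34 for CAMKK2 and 0.38 for RASAL1, which did not pass the test. CAMKK2 fell by 0.34 (adjusted p = 6.5e-09), TPCN1 by 0.21 (adjusted p = 5.6e-05) and P2RX4 by 0.19 (adjusted p = 0.0076), and SPPL3 rose by 0.19 (adjusted p = 4.1e-05). The smallest fall among the OAS genes there was 0.80.

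**Figure D4:**
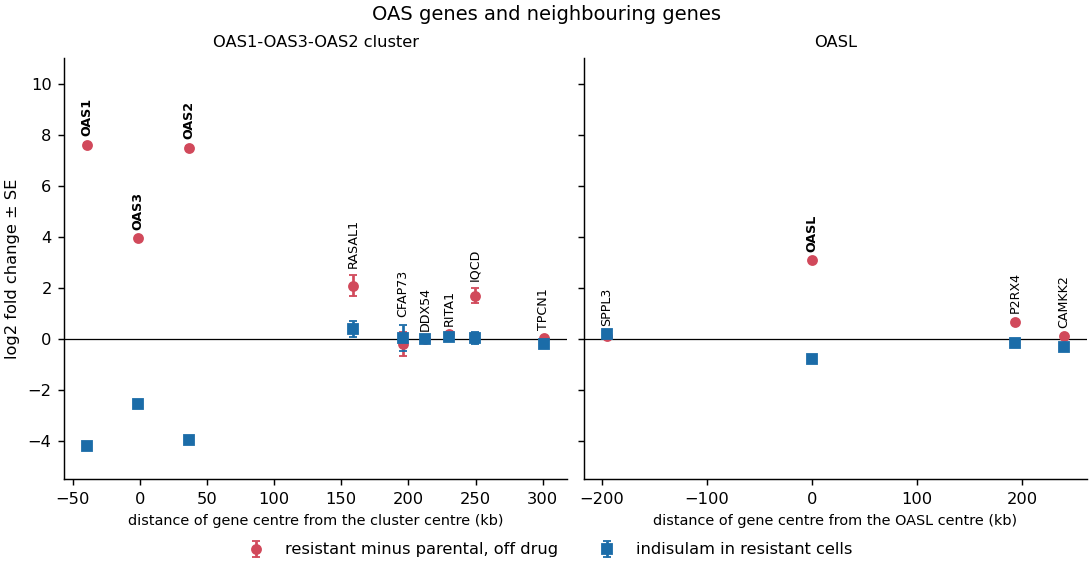
Log2 fold changes of the OAS genes and of the neighbouring protein-coding genes named here, by distance (kb) from the centre of the OAS1, OAS3 and OAS2 cluster (left) or of OASL (right), for the untreated line difference and for indisulam in resistant cells, with standard errors. The members stand out from genes such as DDX54 (-0.02 in both comparisons). RASAL1 (2.08) and IQCD (1.69) were also higher in untreated resistant than in untreated parental cells. The bars of RASAL1, CFAP73 and IQCD are wide because of few reads.

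Downstream of the enzymes are proteins that act on oligoadenylates or in the response to them. Of 5 listed genes, 1 rose and 1 fell in parental cells, and 0 rose and 3 fell in resistant cells, with medians of 0.06 and -0.16 on the log2 scale. Over all genes tested, 31.6% rose and 26.6% fell in parental cells, and 24.9% rose and 25.8% fell in resistant cells. A list count near these shares, here or below, is no result about the list. ABCE1, an ABC protein of ribosome recycling, fell by 0.16 in resistant cells (adjusted p = 4.3e-05), and CNP, a cyclic nucleotide phosphodiesterase abundant in myelin, fell by 0.30 (adjusted p = 2.6e-08). AKAP7, a kinase anchor protein with a domain that can degrade oligoadenylates, fell by 0.33 in parental cells (adjusted p = 0.015), where CNP rose by 0.10 (adjusted p = 0.013). PDE12, which degrades the oligoadenylates, had log2 fold changes of 0.06 (adjusted p = 0.11) in parental and -0.02 (adjusted p = 0.59) in resistant cells.

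Upstream, sensors of double-stranded RNA and DNA and their adaptors changed in both directions. Of 14 tested genes, 6 rose and 3 fell in parental cells (median 0.06), and 5 rose and 7 fell in resistant cells (median -0.34). The shares over all genes were 31.6% and 26.6% in parental and 24.9% and 25.8% in resistant cells. EIF2AK2, the kinase PKR, which shares its ligand with the OAS enzymes, fell by 1.23 in resistant cells (adjusted p = 3.5e-20) and rose by 0.20 in parental cells (adjusted p = 3e-06). ADAR, which edits double-stranded RNA, fell by 0.65 (adjusted p = 1.5e-15) and rose by 0.16 (adjusted p = 1.2e-05), respectively. MAVS, the adaptor of RIG-I, rose by 0.21 in resistant cells (adjusted p = 1.1e-06) and by 0.12 in parental cells (adjusted p = 0.00048). EIF2AK2, ADAR and MAVS were named for their high mean CPM. The other genes that fell in resistant cells were all sensors of nucleic acids, although not every sensor fell. Those that rose were mostly adaptors and signalling proteins. They are not named here, and this grouping was made after the values had been seen.

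Among receptors and signalling proteins of the interferons, 6 of 14 tested genes rose and 6 fell in parental cells, and 4 rose and 6 fell in resistant cells. Beside these counts stand 31.6% and 26.6% of all genes in parental and 24.9% and 25.8% in resistant cells. STAT2, a transcription factor of the interferon response, was at 39.1 and 23.8 CPM in parental cells without and with indisulam, and at 93.9 and 47.5 CPM in resistant cells off and on the drug. Its log2 changes with the drug were -0.71 in the parental line (adjusted p = 2.6e-10) and -0.99 in the resistant line (adjusted p = 3.5e-13), which differed by -0.27 (adjusted p = 0.0013).

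Interferon transcripts themselves were scarce. Of 10 listed ligand genes, 1 was tested, IFNE, an interferon of epithelia, with 2.15 and 1.06 CPM in parental untreated and indisulam cells and 0.688 and 0.868 CPM in resistant untreated and indisulam cells. It fell by 1.02 in parental cells (adjusted p = 8.2e-07) and had a log2 fold change of 0.33 in resistant cells (adjusted p = 0.14). IFNB1 had at most 9 reads and IFNL1 at most 12 reads in any library. Their group means were highest in resistant untreated cells, at 0.0992 CPM for IFNB1 and 0.143 CPM for IFNL1, beside 0.0408 and 0.0787 CPM in resistant indisulam cells, 0.0 and 0.0138 CPM in parental untreated cells and 0.00646 and 0.0 CPM in parental indisulam cells. The order of IFNE was the other way, with its highest level in parental untreated cells, and IFNE made up most of the summed ligand level, which was 2.11 to 2.22 CPM in parental untreated and 0.905 to 0.97 CPM in resistant untreated libraries. Whether any of these transcripts bears on the OAS levels was not tested.

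Of 6 negative regulators of interferon signalling, USP18, a protease that removes ISG15 and restrains the receptor, was at 1.14 and 0.997 CPM in parental untreated and indisulam cells and at 27.4 and 5.02 CPM in resistant untreated and indisulam cells, and it fell by 2.45 in resistant cells (adjusted p = 3.7e-20). In parental cells its log2 fold change was -0.20 (adjusted p = 0.25). Other genes of the list that passed the test in resistant cells changed by less than USP18 did there. SOCS1 rose by 0.68 (SE 0.257, adjusted p = 0.031), on 21 to 56 reads a library. SOCS3 rose by 0.28 (adjusted p = 3.7e-05) and PTPN6 by 0.23 (adjusted p = 0.00016). In parental cells PIAS1 rose by 0.25 (adjusted p = 2.3e-06), PTPN2 rose by 0.09 (adjusted p = 0.019) and SOCS3 fell by 0.18 (adjusted p = 0.0017).

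The OAS genes were set beside 35 other interferon-stimulated genes, of which 34 were higher by more than 1 in the untreated resistant cells (median 2.93) and IFITM2 was not (0.42). Over all genes tested, 7.21% were higher by that much. In resistant cells 34 of them fell and 0 rose with indisulam (median -1.60), the exception being ISG20 (-0.14, adjusted p = 0.23). In parental cells 18 fell and 3 rose (median -0.20), the latter being IFIT5, IFITM2 and DTX3L. Over all genes tested, 25.8% fell and 24.9% rose in resistant cells, and 26.6% fell and 31.6% rose in parental cells. The difference of the responses was called lower for 27.5% and higher for 22.7% of all genes tested. Of this list it was called lower for 30 genes and higher for 1, ISG20 (0.40, adjusted p = 0.038), with a median of -1.40. The remaining 4, which missed the threshold as OASL did, were IFI44 (-0.14, adjusted p = 0.25), DDX60 (-0.05, adjusted p = 0.61), IFIT2 (0.02, adjusted p = 0.79) and HERC5 (0.25, adjusted p = 0.14).

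Values of the 4 most abundant of these genes follow. LGALS3BP, a secreted glycoprotein, fell by 0.74 in resistant cells (adjusted p = 2.8e-12) and by 0.11 in parental cells (adjusted p = 0.0094). IFITM3, a membrane protein that hinders virus entry, fell by 0.84 in resistant cells (adjusted p = 1.3e-16). DTX3L, a ubiquitin ligase, fell by 1.00 (adjusted p = 5.9e-18) and HELZ2, a helicase, by 1.40 (adjusted p = 1.1e-05). Other genes of the list fell by more than OAS2 (-3.96) in resistant cells. Of these, IFI6 (-4.83), IFI44L (-4.43) and MX2 (-4.91) also fell by more than OAS1 (-4.20). IFI27 (-4.13), MX1 (-4.09) and CMPK2 (-4.16) lay between OAS2 and OAS1. In resistant untreated cells, the levels of the genes that fell by more than OAS2 ran from 9.77 CPM for CMPK2 to 62.6 CPM for IFI6. CMPK2 and MX2 are also among the nearest profiles of OAS1 and OAS2, and all of these genes were picked here after their values had been seen.

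**Figure D5:**
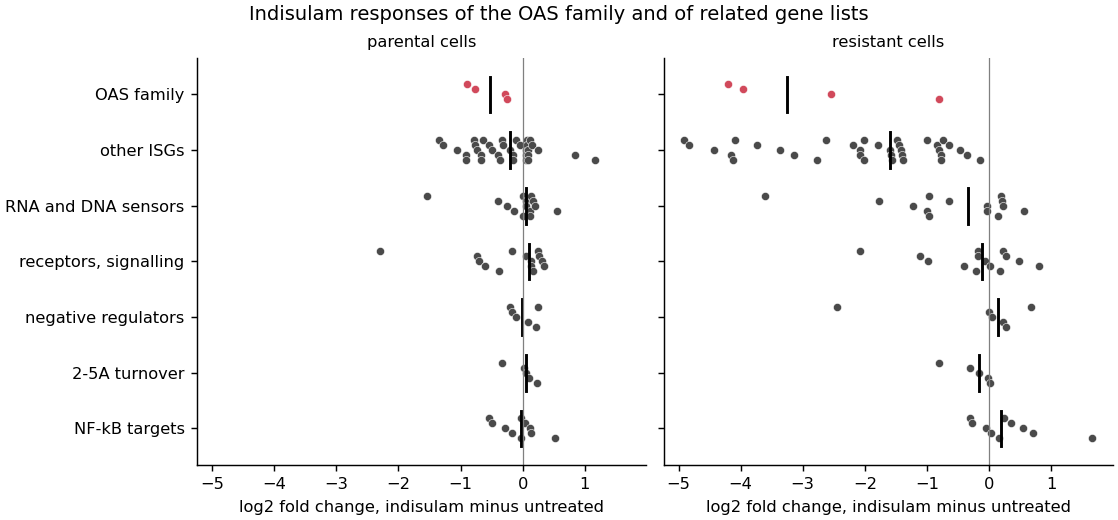
Log2 fold change with indisulam of each tested gene of the OAS family and of the related gene lists, in parental and in resistant cells, 1 point per gene, with the list medians. The other interferon-stimulated genes have medians of -0.20 in parental and -1.60 in resistant cells, and the OAS family -0.52 and -3.26.

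Of 10 NF-kB target genes, 3 rose and 3 fell in parental cells, and 5 rose and 2 fell in resistant cells, with medians of -0.02 and 0.20. The shares over all genes were 31.6% and 26.6% in parental and 24.9% and 25.8% in resistant cells. NFKBIA, the inhibitor that NF-kB itself induces, fell by 0.27 in resistant cells (adjusted p = 4.2e-07), and the log2 fold changes of ICAM1 and RELB there were -0.05 (adjusted p = 0.26) and 0.03 (adjusted p = 0.59). NFKB2 rose by 0.16 (adjusted p = 5e-05). These 4 genes were named for their high mean CPM. The other genes that rose in resistant cells, each by more than NFKB2, are not named here.

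Blood cells are a rich source of OAS transcripts, and their markers were near 0. The 8 leukocyte markers summed to 0.307 to 0.513 CPM in both parental groups and the resistant untreated group and to 0.738 to 0.786 CPM in the resistant indisulam group, with PTPRC and CD3E at 0 reads in every library. The 3 markers of plasmacytoid dendritic cells, the main producers of interferon in blood, had 0 reads in all libraries. Endothelial markers summed to 0.181 to 0.341 CPM. Fibroblast markers summed to 1.34 to 1.86 CPM in 3 groups and to 3.89 to 3.96 CPM in resistant indisulam cells, nearly all from COL1A1, with DCN and LUM at 0 reads.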

How the data were processed

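Stranded poly(A) libraries of Panc10.05 cells (4 groups of 2) had been sequenced in pairs of 150-base reads. Per the submitters' processing notes, the authors aligned reads to GRCh38 with HISAT2 (2.2.1), marked duplicates with Picard and counted reads per gene with HTSeq. The deposited values are raw read counts per Ensembl gene, 1 library per file, and the annotation and strand setting of the counting are not given in the sources used here. Marked duplicates (14.1 to 18.4% of reads) were not counted, which lowers the counts of abundant transcripts most. The 9 footer lines, which name no gene, were left out, and 3.91 to 4.58% of reads were ambiguous between genes.

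Symbols and lengths came from GENCODE 44, which matched 60419 of 60675 IDs. Counts were filtered by edgeR (4.0.16, R 4.3.3) and scaled by TMM, and the 16661 genes kept were fitted over all 8 libraries, with group as the only factor and 4 residual degrees of freedom. The drug response of each line and the difference of the responses were tested by the quasi-likelihood F-test with Benjamini-Hochberg adjustment over all genes. An exact permutation test of 2 against 2 libraries cannot go below 0.333 and was not used. Libraries of 1 group differed beyond counting noise, the chi-square statistic averaging 1.95 to 5.8 over genes, and were kept as separate replicates. CPM are given with TMM scaling.

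The members, gene lists and tests were chosen with earlier results of these data known. Genes named beyond the members were the 4 tested genes of each list with the highest mean CPM, the genes behind counts of 5 or fewer, the 3 nearest profiles and protein-coding genes within 250 kb. The values of some of these genes are not reported here. Alternatives were other scalings, filters, prior counts and lengths, DESeq2 (1.42.0), a replicate block, fits to the compared groups alone and leaving out each library. The steps were tested on simulated data, with results for the drug response in resistant cells. Of 196 changed genes that were tested, 179 (91.3%) were recovered with the right sign. Of 198 calls, 19 (9.6%) were false. That share is larger than the adjusted p threshold of 0.05 used for the calls here aims at. The simulation tested 16183 genes, so that a far smaller part of them was changed than was called in the data. Its share of false calls therefore need not be that of the calls here.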

Additional observations from a re-analysis of the deposited data

Results flagged for a closer look

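The drug response of resistant cells was not that of parental cells for OAS1 (-3.92 on the log2 scale, resistant minus parental), OAS2 (-3.08) and OAS3 (-2.29) by the test of the difference itself (edgeR's quasi-likelihood test, adjusted p = 4.9e-09, 1.3e-09 and 5.1e-20). The resistant changes were -4.20, -3.96 and -2.55, and the parental ones -0.28, which did not pass the test (adjusted p = 0.4), -0.89 and -0.26. The family was chosen for high values in the resistant untreated over the parental untreated libraries, and both groups enter this difference, so that the choice favoured its direction and the p-values are no independent evidence of it. The length of exposure differs between the lines by design, and the line and the length of exposure cannot be told apart.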

How the results depend on the processing

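Of 549 values recomputed under other settings, 21 moved beyond the limits set for them, and no test crossed its threshold. The OASL difference of the responses, which was not called, changed sign, to 0.08 with library totals alone, 0.05 with genes under a mean of 1 CPM left out, also 0.05 without resistant untreated replicate 1, 0.12 without parental indisulam replicate 1 and 0.03 without resistant indisulam replicate 2. The calls of the OAS genes (3 lower in parental cells, 4 lower in resistant cells, 3 lower in the difference of the responses, 0 higher) were the same under every alternative run. With library totals alone in place of TMM, 2770 of all genes were called lower in the difference of the responses in place of 4577, and the share of higher among all calls went from 45.2 to 65.8% there, from 54.3 to 42.0% in parental and from 49.1 to 59.7% in resistant cells. This scaling moved the median of all genes in the difference to 0.125, and with it OAS3 was at -2.17.

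The levels per kilobase of exon in resistant untreated cells (merged exons: 4.73 CPM for OAS1, 9.91 for OAS2, 34.0 for OAS3 and 12.6 for OASL) depended on the length. With the longest transcript they were 8.15, 19.8, 63.3 and 24.3, and with the MANE Select transcript, added after seeing the data, 37.7, 24.1, 92.9 and 24.3. With library totals alone OAS2 was at 9.84. Leaving out 1 library, the median line difference on the drug ran from 3.17 to 3.62, reached without parental indisulam replicate 1, OAS1 in parental cells from -0.64 to -0.02 and the OASL difference of the responses from -0.14 to 0.12.

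The numbers of the libraries share only a number: deviations of same-numbered libraries correlated between -0.058 and 0.027 over 6 pairs of groups. With the replicate block the difference of the responses was -3.91 for OAS1, -3.08 for OAS2, -2.29 for OAS3 and -0.03 for OASL, and 4528 of all genes were called lower.

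Depth limits OAS1 and OAS2 in parental cells, at 16 to 67 reads a library. With 2 technical replicates a group, the spread between independent cultures was not measured.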
